A study of Drosophila melanogaster with 7 samples.

Results

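The genes described here handle iron in Drosophila melanogaster: the ferritin subunit genes Fer1HCH, Fer2LCH and Fer3HCH, the transferrin genes Tsf1, Tsf2 and Tsf3, the metal importer gene Mvl, the iron regulatory protein genes Irp-1A and Irp-1B (also IRP-1A and IRP-1B), and heca, the measured gene next to the ferritin pair. They were found by current symbol or synonym in the probe annotation, and all 10 genes had a probe. Mvl had 2 probes and each of the others 1, so the set is 11 of 14569 probes. The 11609 named genes of the array are the genes in all. The set was chosen on the ratios between cleaved and intact glands, in that the co-positive ferritin pair and heca had been singled out on these 7 arrays. The ratios of its members in that comparison are therefore a description, and no p is given for them.

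Each of 7 spotted 2-colour arrays compared total RNA of salivary glands from crawling last-instar larvae with cleaved or intact Rad21, the subunit that closes the cohesin ring. All glands carried w1118 and hs-TEV/+, a TEV protease gene under a heat-inducible promoter that is not restricted to the gland. They were heated for 45 min at 37 °C and left at room temperature for 10 to 12 h. The cleaved glands had the genotype Rad21ex15 Rad21(TEV)/Rad21ex3, with a myc-tagged Rad21 that the protease cuts. The intact glands were genomic Rad21/Rad21ex3 on 3 arrays (1.1, 1.2 and 1.3) and Rad21ex3 tgRad21/Rad21ex3, with a transgenic Rad21, on 4 arrays (2.1 to 2.4), so both kinds share the Rad21ex3 allele with the cleaved glands. The design text calls the 7 sample pairs independent. Dyes were swapped, with Cy5 on the cleaved sample of arrays 1.1, 1.2, 2.1 and 2.2 and Cy3 on that of 1.3, 2.3 and 2.4 per the channel labels. The design text gives these as 3 arrays with Cy5 and 4 with Cy3 on the cleaved sample, and the channel labels were used for every dye comparison. No age in hours and no number of pooled larvae is stated in the labels. The cleaved and intact glands came from different stocks, and 7 of the 10 genes lie on chromosome 3, which carries the Rad21 alleles. Effects of the stocks and of cleavage therefore cannot be told apart.

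Values are log ratios as deposited, read as log2. The labels do not name the numerator. A negative value likely stands for a lower level after cleavage. This rests on EcR, whose product, the ecdysone receptor, is known to be scarce in fly neurons without cohesin, and which was negative on 7 of 7 arrays (mean −1.75 ± 0.40, SD, n = 7). In whole glands, fewer cells of a type and less RNA per cell cannot be told apart. A ratio also gives no level, so neither the tissue nor its purity could be checked through marker levels. The share of probes beyond 1 in either direction ran from 6.02% on array 1.2 to 27.3% on array 2.1, and array medians lay between −0.22 and 0.25. Of 8 genes taken as salivary gland markers, 3 were negative and 0 positive past an adjusted p under 0.05 in limma. Of all probes 3.8% were negative and 4.15% positive past that adjusted threshold. At an unadjusted p under 0.05, 5 of the 8 were negative and 1 positive, with no share of all probes beside these counts. The glue protein gene Sgs1 had a fitted log2 ratio of −6.21 and was negative on 7 of 7 arrays, while PH4alphaSG1 lay at 1.25. The median of the 8 ran from −1.19 to 0.28 over the arrays. The part of these markers in the ratios of the iron genes was not tested.

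Ferritin stores iron in a protein shell built from heavy chains, which oxidise the iron, and light chains, which help it to form a mineral core. Insect ferritin enters the secretory pathway and is secreted, unlike the cytosolic ferritin of mammals. Transferrins bind iron outside cells. Iron regulatory proteins are relatives of aconitase that, when they lack their iron-sulfur cluster, bind a hairpin called the iron-responsive element. In flies that element lies in the messages of Fer1HCH and of SdhB, a subunit of succinate dehydrogenase.

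The ferritin pair was positive on most arrays. Fer1HCH, the heavy chain, read 0.97, 0.83 and 0.67 on arrays 1.1 to 1.3, and 1.46, 1.0002, 0.64 and −0.03 on arrays 2.1 to 2.4. It was thus positive on 6 of 7 arrays and near 0 on array 2.4, with a fitted log2 ratio of 0.75 ± 0.15 (SE, n = 7), or 1.68-fold. Fer2LCH, the light chain, read 1.14, 0.96 and 0.63 on arrays 1.1 to 1.3, and 1.60, 1.203, 0.05 and −0.22 on arrays 2.1 to 2.4. Its fitted log2 ratio was 0.69 ± 0.16 (SE, n = 7), or 1.61-fold, with array 2.4 again the only one below 0. On array 2.3 Fer2LCH lay below the median of all probes, which was 0.25.

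The 2 genes followed each other from array to array. Both had their highest value on array 2.1 and their lowest on 2.4, and their ratios never had opposite signs. As the 2 genes had been singled out as co-positive on these arrays, their likeness is a description. The root mean square difference between them over the 7 arrays was 0.27. By the same measure the 2 probes of the single gene Mvl differed by 0.61, and the 2 of the iron transport gene Zip99C by 0.31. Fer1HCH exceeded Fer2LCH by 0.59 on array 2.3, the widest gap between them. The RefSeq gene table places them side by side on 3R with overlapping spans. Per the labels' protocols the label was made on both strands of double-stranded cDNA, and nothing used here gives the positions of the probes, so a probe in the shared stretch would not tell the genes apart.

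**Figure D1:**
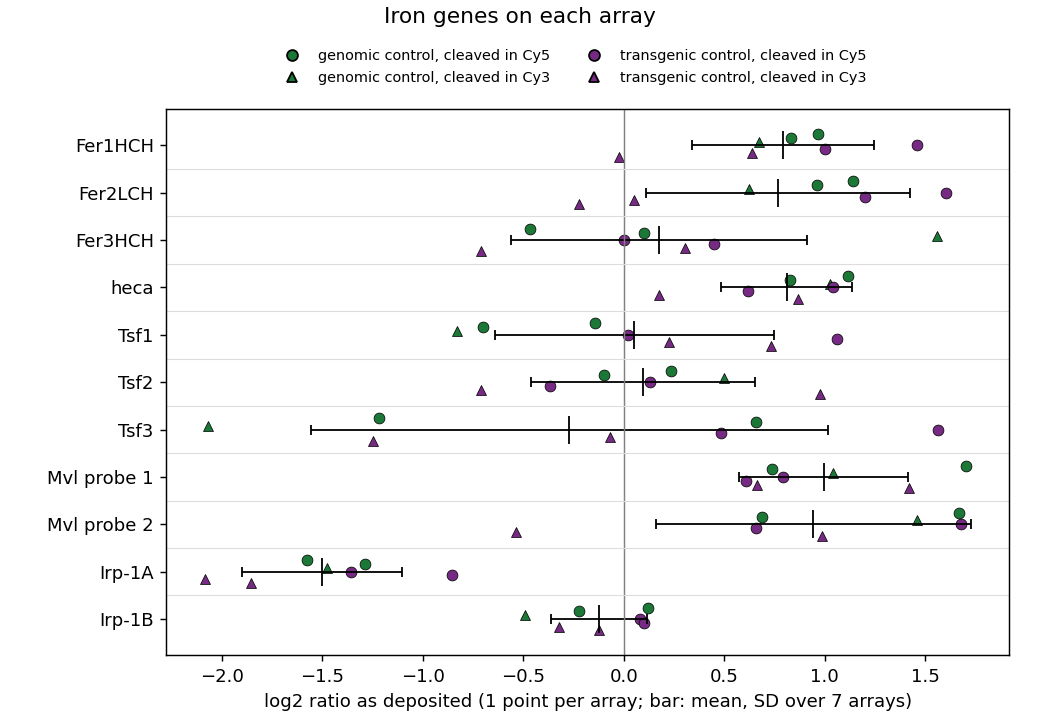
Log2 ratios as deposited (horizontal axis) of the 11 probes of the iron genes, with 1 point per array, coloured by the control and shaped by the dye of the cleaved sample; bars give the mean and the SD over 7 arrays. Irp-1A lies below −0.8 on every array, heca and Mvl probe 1 above 0 on every array, and the transferrin genes on both sides of 0.

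The other ferritin gene did not share this pattern. Fer3HCH, which encodes a mitochondrial heavy chain and lies on X, ran from −0.71 on array 2.4 to 1.56 on array 1.3, with a fitted log2 ratio of 0.20 ± 0.26 (SE, n = 7). It was positive on 5 of 7 arrays, but array 2.1, where the pair was highest, read 0.00.

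The gene heca (headcase) encodes a protein known from the precursor cells of adult tissues and from tracheal branching, and has no known part in iron handling. It was positive on 7 of 7 arrays, from 0.18 on array 2.3 to 1.12 on array 1.1, with a fitted log2 ratio of 0.80 ± 0.16 (SE, n = 7). On array 2.3 the median of all probes was 0.25, so heca lay below it there. Its fitted ratio was close to those of the pair, but its arrays did not rank alike. On array 2.4 heca read 0.87, while Fer1HCH and Fer2LCH were below 0.

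The measured genes around this locus had mixed ratios. On the far side of the pair, CG2217, CG15535, mRpS18C, CG15536 and CG15533 had fitted log2 ratios between −0.41 and −0.09, and CG2218 lay at 0.18 ± 0.13 (SE, n = 7). Beyond heca, CG18404 lay at 0.04, CG9682 at 0.03, CG9733 at 0.31 and the ribosomal protein gene RpS7 at −0.25. CG9737, 4 measured genes beyond heca, stood apart at 2.08 ± 0.24 and was positive on 7 of 7 arrays. Of the 11 flanking genes other than heca, 1 (CG9737) was past the threshold of an adjusted p under 0.05 in the limma fit over all probes, where 7.95% of all probes were past it. Around the 7 members that lie elsewhere, 2 of 14 directly neighbouring measured genes had a probe past it. These were betaCOP, a coat protein gene next to Tsf1, with a mean log2 ratio of −0.81, and Pmm2, a phosphomannomutase gene next to Tsf2, at −0.89.

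**Figure D2:**
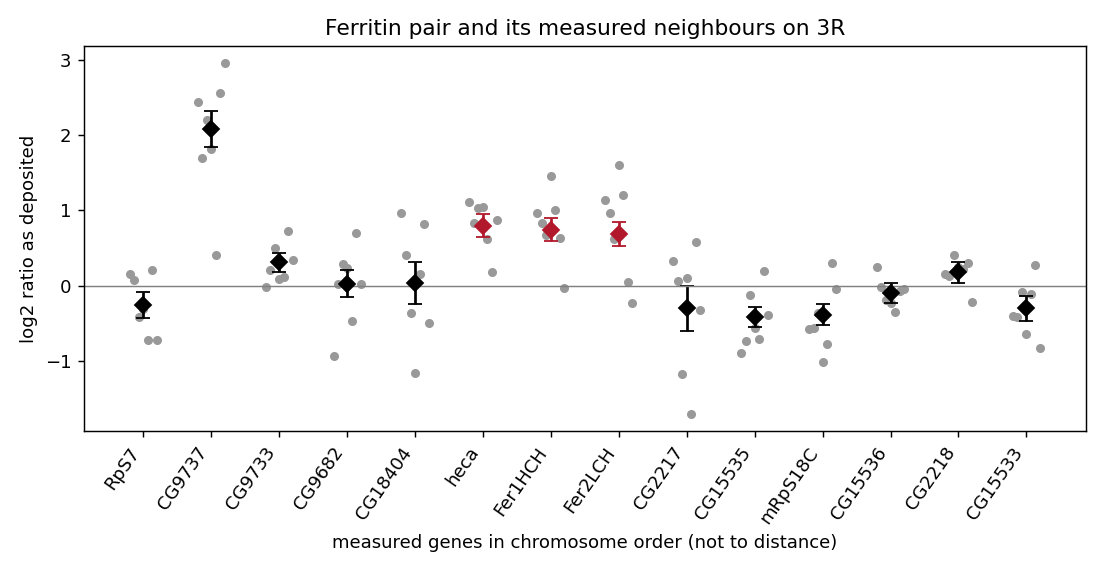
Log2 ratios as deposited (vertical axis) of Fer1HCH, Fer2LCH and the 6 measured genes on each side, in chromosome order; grey points are the 7 arrays and diamonds the fitted ratio with its SE, in red for the pair and heca. The pair and heca lie between 0.69 and 0.80, CG9737 lies at 2.08, and the other genes lie between −0.41 and 0.31.

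The ratios of the pair differed between the dye orientations of the arrays, as did those of some other members. With the cleaved sample in Cy5, Fer1HCH averaged 1.06 ± 0.27 (SD, n = 4), against 0.43 ± 0.39 (SD, n = 3) with it in Cy3. Fer2LCH averaged 1.23 ± 0.27 (SD, n = 4) in Cy5 and 0.15 ± 0.43 (SD, n = 3) in Cy3. For both genes every Cy5 array exceeded every Cy3 array. This held for 2 of the 11 probes, while 5.62% of all probes had all Cy5 arrays above all Cy3 arrays.

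The dye term was tested, since the choice of genes did not use it. The Cy5 arrays exceeded the Cy3 arrays by 1.08 for Fer2LCH (95% interval 0.35 to 1.80, limma unadjusted p = 0.00896 and adjusted p = 0.490) and by 0.64 for Fer1HCH (−0.07 to 1.34, limma unadjusted p = 0.0719 and adjusted p = 0.510). In limma 0 of the 11 probes and 0.0% of all probes passed the adjusted threshold for dye, and 1 of the 11 and 1445 of all 14569 had an unadjusted p under 0.05. Of the 11 probes Tsf3 had the widest difference, Cy5 minus Cy3, at 1.502 (95% interval −0.12 to 3.13). Its limma unadjusted p was 0.0653 and its adjusted p 0.506. For Irp-1A and Mvl probe 2 the difference was 0.537 each, for Irp-1B 0.33, for heca 0.21 and for Tsf1 0.02. Fer3HCH (−0.36), Tsf2 (−0.28) and Mvl probe 1 (−0.08) lay in the other direction. Fitted ratios give both orientations equal weight, so they lie between the means of the 2 orientations.

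**Figure D3:**
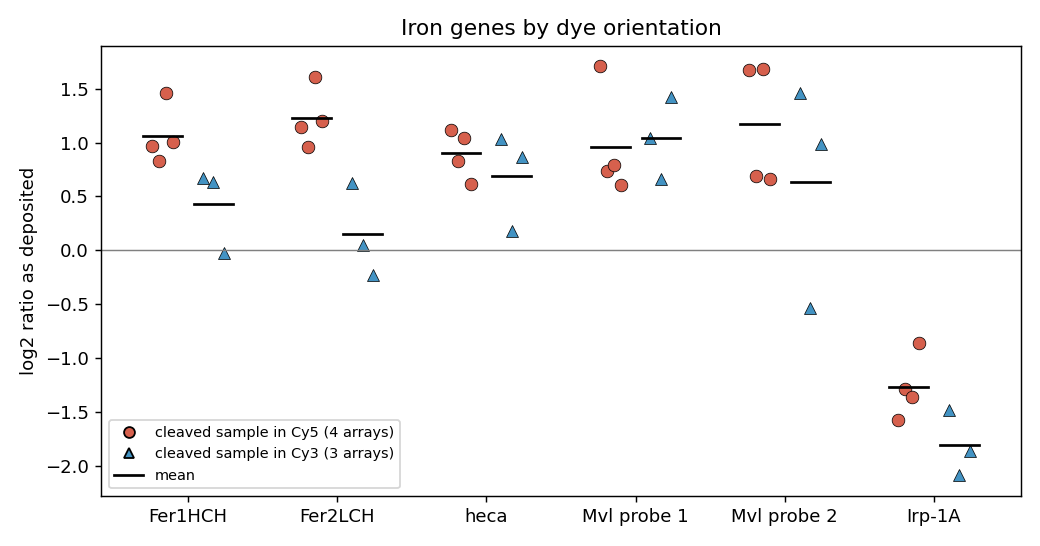
Log2 ratios as deposited (vertical axis) of 6 iron gene probes, split by the dye of the cleaved sample (circles Cy5, 4 arrays; triangles Cy3, 3 arrays), with the mean of each split as a line. For Fer1HCH and Fer2LCH the splits do not overlap, while those of heca, both Mvl probes and Irp-1A do.

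Irp-1A, one of the fly's iron regulatory proteins and the one known to bind the iron-responsive element, was the most negative member. It read −1.58, −1.29 and −1.48 on arrays 1.1 to 1.3, and −1.36, −0.86, −2.09 and −1.86 on arrays 2.1 to 2.4. All 7 values lay below 0, and the fitted log2 ratio was −1.54 ± 0.15 (SE, n = 7), a 2.91-fold difference. Of all probes, 2.07% had a fitted ratio at least that far from 0. On arrays 2.1 and 2.2, 11.5% of the probes lay at or below Irp-1A, and on the other 5 arrays that share was 1.21% to 2.78%.

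Irp-1B, its paralogue, which also has aconitase activity but is not known to bind that element, did not share the ratio. It ran from −0.49 on array 1.3 to 0.12 on array 1.1, with a fitted log2 ratio of −0.15 ± 0.13 (SE, n = 7). Irp-1A lay below Irp-1B on 7 of 7 arrays, with differences between −1.76 and −0.96.

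Irp-1A and the ferritin pair had opposite signs on 6 of 7 arrays. On array 2.4 all 3 genes were negative. The median of all probes was −0.15 there, so Fer1HCH at −0.03 lay above it and Fer2LCH at −0.22 below it. Fer1HCH exceeded Irp-1A by 1.83 to 2.82 on the single arrays, and Fer2LCH exceeded it by 1.63 to 2.96. These differences had SDs of 0.40 and 0.44 over the arrays, below those of Fer1HCH (0.45) and Fer2LCH (0.66) themselves. The opposite signs thus do not mean that the values moved in opposite directions from array to array. Since the members were chosen with these ratios known, the sign count is a description. All these values are ratios of transcripts, so they hold nothing on the translation of ferritin, the step that iron regulatory proteins are known to act on.

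Mvl, a divalent metal importer of the NRAMP family that brings iron into the cytosol, was positive by both of its probes. Probe 1 read 1.71, 0.74 and 1.04 on arrays 1.1 to 1.3, and 0.79, 0.61, 0.66 and 1.42 on arrays 2.1 to 2.4. All 7 values were above 0, with a fitted log2 ratio of 1.001 ± 0.18 (SE, n = 7). Probe 2 had a similar fitted log2 ratio of 0.91 ± 0.27 (SE, n = 7) but a wider spread, from −0.54 on array 2.3 to 1.68 on array 2.1. The probes parted most on array 2.3, by 1.201, and on 2.1, by 0.89.

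The transferrin genes had no common direction. Tsf1, the iron carrier of the hemolymph, read −0.15, −0.70 and −0.83 on arrays 1.1 to 1.3, and 0.02, 1.06, 0.23 and 0.73 on arrays 2.1 to 2.4. Every array with the genomic control was negative and every array with the transgenic control was positive. On array 2.3, however, Tsf1 lay just below the median of all probes, which was 0.25. Tsf2, the fly melanotransferrin, known from the septate junctions of epithelia, ran from −0.71 on array 2.3 to 0.98 on array 2.4 and had a fitted log2 ratio of 0.11 ± 0.21 (SE, n = 7). Tsf3 had the widest range of the set. It read −1.22, 0.66 and −2.07 on arrays 1.1 to 1.3, and 1.57, 0.49, −0.07 and −1.25 on arrays 2.1 to 2.4. The values of the controls overlapped, and the fitted log2 ratio was −0.38 ± 0.35 (SE, n = 7).

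Whether the ratio depended on the kind of intact control was tested for each member. In limma 0 of the 11 probes and 0.0% of all probes passed at an adjusted p under 0.05, with 2 of the 11 probes and 4.26% of all probes at an unadjusted p under 0.05. These 2 were Tsf1 and Tsf3. For Tsf1 the mean log2 ratio was −0.56 ± 0.36 (SD, n = 3) with the genomic control and 0.51 ± 0.47 (SD, n = 4) with the transgenic control. The fitted difference, genomic minus transgenic, was −1.10 ± 0.38 (SE, 95% interval −1.99 to −0.21, limma unadjusted p = 0.0217 and adjusted p = 0.9998). In an exact two-sided permutation test over the arrays, 2 of 35 assignments gave a difference as wide (p = 0.0571), where the smallest p possible is 0.0286. The controls did not overlap for 1 of the 11 probes, while that held for 3.97% of all probes in either direction.

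Tsf1 is known as a fat body product, so markers of that tissue were set beside it. Over 5 fat body genes (Fbp1, Fbp2, Lsp2, apolpp and Apoltp) the median log2 ratio of an array ran from −1.02 to 0.65 with the genomic control and from −0.27 to 0.78 with the transgenic control. Over 8 hemocyte genes the array medians ran from −0.02 to 0.16 and from −0.96 to 0.96. Of the fat body genes Apoltp alone was past the test between cleaved and intact glands (0.91 ± 0.19, SE). Between the controls 0 of these 13 genes were past it in limma. At an unadjusted p under 0.05 there was 1 of them, beside 4.26% of all probes. This was Fbp1, a fat body protein gene, with a fitted difference, genomic minus transgenic, of −1.31. Fbp1, Fbp2 (−0.57) and Lsp2 (−0.38) lay in the direction of Tsf1, and apolpp (0.44) and Apoltp (0.61) in the other. The part of these markers in the Tsf1 values was not tested.

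For Tsf3 the fitted difference between the controls was −1.35 ± 0.57 (SE, 95% interval −2.69 to −0.01, limma unadjusted p = 0.0493 and adjusted p = 0.9998), and 12 of 35 assignments were as wide in the exact permutation test (p = 0.343). For the ferritin pair it was small against its error. It was −0.05 (95% interval −0.84 to 0.74) for Fer1HCH and 0.07 (−0.74 to 0.88) for Fer2LCH. Irp-1A also lay close to 0 here, at 0.00 (95% interval −0.77 to 0.77), with means of −1.45 ± 0.15 (SD, n = 3) and −1.54 ± 0.55 (SD, n = 4). For heca, Mvl, Tsf2, Fer3HCH and Irp-1B the fitted differences lay between −0.19 and 0.50, each with an interval that held 0. The intervals are wide, so they do not show that the controls acted alike.

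In the limma fit between cleaved and intact glands, 5 of the 11 probes were past the adjusted threshold, namely Irp-1A with a negative ratio and Fer1HCH, Fer2LCH, heca and Mvl probe 1 with positive ones. Over all probes 7.95% were past it, 3.8% negative and 4.15% positive. A single sign on all 7 arrays was seen for 3 of the 11 probes and for 11.7% of all probes. Since these ratios were known when the genes were chosen, nothing is read from the count. The median fitted log2 ratio was 0.20 over the 11 probes and 0.02 over all probes. Leaving out 1 array ended the call of Fer2LCH for any of the 7 arrays, and that of Fer1HCH for any except 2.4. For heca it ended without 1.1, 1.2, 1.3, 2.1 or 2.4 and for Mvl probe 1 without 2.4. Over the same fits the log2 ratio ran from 0.68 to 0.86 for Fer1HCH, from 0.57 to 0.78 for Fer2LCH and from −1.62 to −1.47 for Irp-1A. That of Fer3HCH ran from −0.09 without array 1.3 to 0.48 without 2.4. The sign also turned for Tsf1, which ran from −0.12 without 2.4 to 0.27 without 1.3, and for Tsf2, which ran from −0.07 without 2.4 to 0.36 without 2.3.

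Other genes of iron metabolism were taken from lists by known role. The lists were made with earlier results of these data known. Their p values and calls are therefore a description and no independent test. Of 28 listed genes 23 had a probe, 24 probes in all. In limma 3 of these were negative and 0 positive past the adjusted threshold, and 21 did not pass. Of all probes 3.8% were negative and 4.15% positive past that threshold. At an unadjusted p under 0.05, 3 of the 24 were positive, a count with no share of all probes beside it. The median log2 ratio was 0.01 beside 0.02 over all probes.

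Of the 6 measured heme genes, the first 2 enzymes of heme synthesis were negative on 7 of 7 arrays. Alas, which makes 5-aminolevulinate, ran from −1.61 on array 2.3 to −0.75 on array 1.2, with a fitted log2 ratio of −1.03 ± 0.15 (SE, n = 7, adjusted p = 0.00715 with limma). Pbgs, which joins that product into porphobilinogen, ran from −1.37 on array 1.3 to −0.11 on array 1.1, with −0.84 ± 0.14 (SE, n = 7, adjusted p = 0.0102 with limma). The later enzymes Urod, Coprox, Ppox and FeCH (ferrochelatase, which inserts the iron) lay between −0.36 and 0.18 and did not pass.

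The remaining gene past the test was mAcon1, a mitochondrial aconitase and so a relative of the iron regulatory proteins. It was negative on 7 of 7 arrays, from −1.66 on array 2.3 to −0.32 on array 2.2, with a fitted log2 ratio of −1.205 ± 0.16 (SE, n = 7, adjusted p = 0.00400 with limma). The other aconitase gene, mAcon2, lay at −0.06 ± 0.16 and SdhB at −0.19 ± 0.17. Alas, Pbgs and mAcon1 each stayed past the threshold without any 1 array (limma adjusted p up to 0.0463), but not on the 4 transgenic control arrays alone (0.176 to 0.252). There the log2 ratios were −1.19, −0.82 and −1.17, and 39 of all probes passed. The refits reuse the arrays on which these genes passed, so they are a description and no independent support.

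None of the 8 measured genes of iron-sulfur cluster assembly passed the adjusted threshold in limma, where 7.95% of all probes passed. Of these 8, 0 had an unadjusted p under 0.05. Among them were Nfs1, IscU and fh (frataxin). Their fitted log2 ratios lay between −0.29 and 0.26. None of the 7 probes of iron transport genes passed either, with 3 at an unadjusted p under 0.05. The share of all probes at that unadjusted level was not computed, so nothing is read from these unadjusted counts. Sfxn2, a sideroflexin of mitochondria, had a fitted log2 ratio of 0.57 ± 0.18 (SE, n = 7), positive on 6 of 7 arrays. Zip99C, known to carry iron into the secretory pathway where ferritin is loaded, varied more between arrays than the other 22 probes of these lists. Its first probe read −2.26, 1.98 and −3.21 on arrays 1.1 to 1.3, and 0.78, −0.02, 0.24 and −2.47 on arrays 2.1 to 2.4. Its second probe differed from the first by 0.53 at most and never had the opposite sign, so both probes showed this spread.

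**Figure D4:**
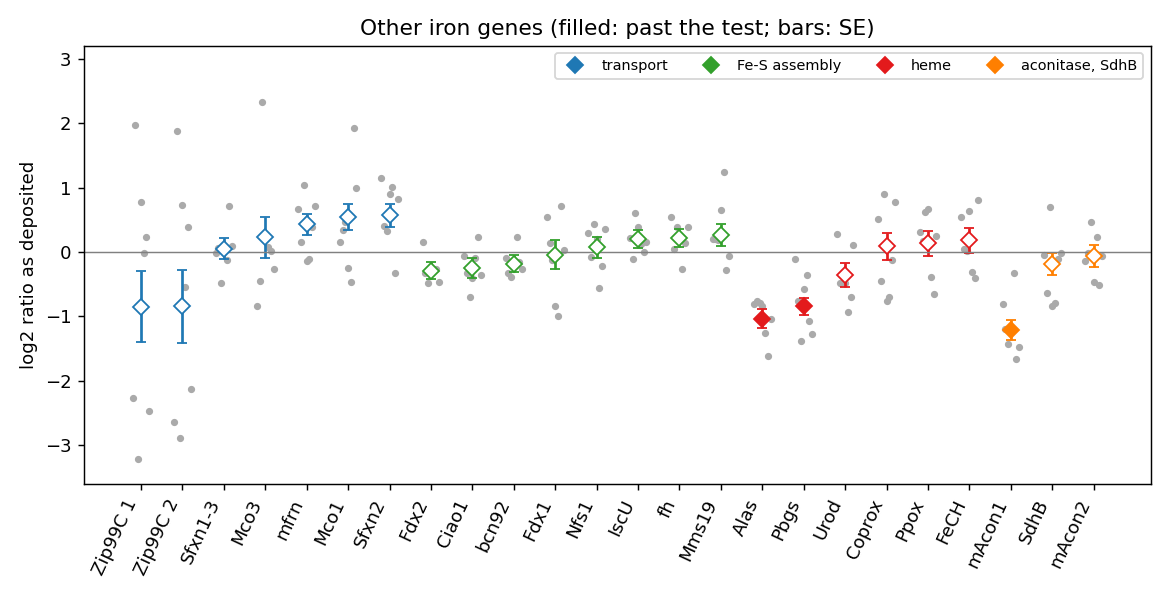
Log2 ratios as deposited (vertical axis) of 24 probes of other iron genes, coloured by list; grey points are the 7 arrays, diamonds the fitted ratio with its SE, filled where the adjusted p was under 0.05. Alas, Pbgs and mAcon1 are filled and lie below −0.8, and the arrays of both Zip99C probes spread from about −3 to 2.

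Across the array, the 5 genes whose ratios came closest to the mean of the ferritin pair over the 7 arrays were Ada2b, CG31793, subdued, PRL-1 and CG7083, with root mean square differences of 0.20 to 0.27. Ada2b, a subunit of a histone acetyltransferase complex, read 1.29, 1.13 and 0.75 on arrays 1.1 to 1.3, and 1.41, 1.16, 0.37 and 0.26 on arrays 2.1 to 2.4. The median difference over 11607 genes was 1.14. By this measure heca ranked 150th, at 0.48, and Mvl 649th, at 0.65. The ranking is a description over 7 arrays that share their dye orientations and controls.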

How the data were processed

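The authors deposited 1 log ratio per probe and array for 14569 probes, read here as log2. Neither the log base nor the background correction, normalization and probe averaging is given in the sources used here. Across probes, Pearson's r between arrays with swapped dyes was 0.011 to 0.481 (median 0.270). Between arrays of the same dye orientation it was −0.041 to 0.587 (median 0.394). Since no swapped pair had a negative r, the ratios were taken as already turned one way and no array was turned. The number of arrays limits the precision. Probes were named by Entrez gene number (12011), accession (107), synonym (481), current symbol (20) or the file's symbol (38), through the RefSeq gene table of the Release 6 assembly. Its coordinates gave the order of the genes and the overlap of the Fer1HCH and Fer2LCH spans, and no probe was placed by them. Probes of Fer2, Fer3, Hdc and Trf, which share only an old name with a member, were left out. Some genes of the lists were not analysed here.

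In R 4.3.3, limma 3.58.1 (lmFit, eBayes) fitted every probe with a cleavage effect and a dye term (5 residual degrees of freedom, 3.04 added by eBayes), and with an effect per control for the difference between controls. Benjamini-Hochberg adjustment covered all probes, with a threshold of 0.05. The scripts were tested on simulated data. The members and lists were chosen with earlier results of these data known. Named were all members, 6 measured neighbours on each side of the ferritin pair, other iron genes of the lists past the test or with a mean of at least 0.5 in size, and the 5 nearest profiles. Alternatives were centring, scaling, array weights, leaving out the dye term, adding a set term, each control alone, gene means, medians and leaving out each array.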

Additional observations from a re-analysis of the deposited data

Results flagged for a closer look

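Tsf1 stands out because all 3 arrays with the genomic control and all 4 with the transgenic control lay on opposite sides of 0, with a difference of means, genomic minus transgenic, of −1.07 on the log2 scale. The split by sign holds for the ratios as deposited. Array 2.1 read 0.02, and array 2.3 read 0.23, just below its median of 0.25. The test of that difference did not pass (limma adjusted p = 0.9998, and 0.714 or more under the alternatives run, and exact permutation p = 0.0571). Leaving out 1 array at a time kept the fitted difference between −1.40 and −0.88.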

How the results depend on the processing

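The fitted log2 ratios of the 11 probes moved by less than the SD over arrays under each alternative run, and no called ratio changed sign. The number of members past the threshold was 5. It was 0 on the transgenic control arrays alone and 2 to 4 without 1 array, and 4 to 6 under centring, scaling, array weights, omission of the dye term, a set term, gene means and the genomic control arrays alone. Fer2LCH lost its call without the dye term and with a set term, and the second Mvl probe gained one with array weights, on the genomic control arrays alone or without array 2.3. The number of other iron probes past it was 3, against 0 on the transgenic and 5 on the genomic control arrays alone and 3 to 4 without 1 array. Over all probes it was 1158, against 39 on the transgenic and 2781 on the genomic control arrays alone and 724, 578, 819, 661, 794, 1157 and 515 without array 1.1, 1.2, 1.3, 2.1, 2.2, 2.3 or 2.4. Between the controls 0 probes passed, with 621 at an unadjusted p under 0.05 in limma, and 1 passed without the dye term. The smaller sets have 2 and 1 residual degrees of freedom, so these counts do not compare the controls. No paired analysis was possible because array numbers are not shared between the controls.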

Other observations

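Tsf3 and both probes of Zip99C had their 3 lowest log2 ratios on the same arrays, 1.1, 1.3 and 2.4, which belong to both controls and both dye orientations. This was noticed after the values were seen and was not tested. On those arrays Tsf3 read −1.22, −2.07 and −1.25 and the first Zip99C probe −2.26, −3.21 and −2.47, while on the other 4 arrays Tsf3 lay between −0.07 and 1.57 and that probe between −0.02 and 1.98. The gland enzyme gene PH4alphaSG2 had its 3 highest values there, at 2.29, 2.24 and 1.48.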
